A study of Mus musculus with 8 samples.

Results

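The 10 mouse genes of the Myc, Max and Mxd network were followed through sorted cells of the small intestine epithelium. The members are Myc, Mycn, Mycl, Max, Mxd1, Mxd3, Mxd4, Mxi1, Mnt and Mga, chosen by symbol, and all 10 were found among the 23318 genes that each library lists. The CD24Neg cells lacked and the CD24Mid cells carried an intermediate amount of the surface glycoprotein CD24, and leukocytes (CD45-positive) and cells that bind the lectin of Ulex europaeus had been removed from both. The submitters also call the CD24Mid cells CD24low, and the series concerns gene activity during intestinal differentiation. CD24Neg cells gave 4 libraries, numbered 2, 4, 6 and 8 in their titles, and CD24Mid cells gave 4, numbered 1, 3, 5 and 7, which the series counts as biological replicates. The labels give no strain, age, sex, genotype or treatment for either fraction, and both were made from total RNA of sorted cells. Values are the authors' normalised expression values per gene, which are neither logarithmic nor divided by gene length.

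Myc, Mycn and Mycl are transcription factors with a basic helix-loop-helix leucine zipper. They activate genes as dimers with Max, mostly at the E-box sequence CACGTG. Mxd1, Mxd3, Mxd4, Mxi1 (also known as Mad2 or Mxd2) and Mnt also need Max for DNA binding, occupy the same E-boxes and bring in the Sin3 and histone deacetylase corepressor. Mga is a large Max partner that belongs to a non-canonical polycomb complex, PRC1.6. In the intestinal crypt Myc is a target of Wnt signalling and is needed for normal proliferation, and Mxd1 is known from several tissues as a gene of cells that leave the cell cycle and differentiate. The comparison of CD24Neg with CD24Mid cells asks whether the transcripts of the network shift from the Myc side to the Mxd side.

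The sorted cells matched their CD24 label. Cd24a, which encodes CD24, had 287 to 563 in the CD24Neg libraries and 2246 to 3693 in the CD24Mid libraries, with a log2 difference of -2.79 (SE 0.22, adjusted p = 2.34e-06). Epcam, Cdh1 and 6 further epithelial markers summed to 162599 to 189287 in CD24Neg and 110712 to 144571 in CD24Mid. Of these 8 markers, 2 were higher, 2 lower and 4 not called, with Epcam and Cdh1 among the last, and the median log2 difference was -0.01. Vil1, named after its values were seen, averaged 47069 in CD24Neg and 7370 in CD24Mid, so the sum is not a measure of epithelial content alone. All 10 enterocyte markers were higher in CD24Neg, and all 9 stem cell and all 8 proliferation markers were lower. These and the marker counts that follow stand beside 34.0% called higher and 34.3% called lower among all tested genes. Of the secretory lineages, 5 of 8 goblet markers were higher in CD24Neg and 3 were not called, and 8 of 10 enteroendocrine markers were lower and 2 were not called. Of 6 Paneth markers, 1 was lower and 5 were not called. Of 4 tested tuft markers, 1 was higher, 1 lower and 2 not called. Estimated depth was 12.5 to 20.7 M reads in CD24Neg and 17.4 to 19.7 M in CD24Mid, if the even steps between the lowest values are worth 1 read each. Mitochondrially encoded genes took 28.3 to 37.4% of the summed values in CD24Neg and 8.03 to 9.10% in CD24Mid, so every member is measured in a different RNA background in each fraction. The 9 T cell and intraepithelial lymphocyte markers summed to 7821, 486, 1361 and 6158 in CD24Neg libraries 2, 4, 6 and 8, against 120 to 312 in CD24Mid, and 7 of the 8 tested were higher in CD24Neg. Cd2 alone of that list stayed under a value of 10 in every library. Ptprc, which encodes CD45, averaged 259 ± 226 in CD24Neg and 78.5 ± 42.0 in CD24Mid (SD, n = 4 each), with a log2 difference of 1.31 (adjusted p = 0.135), which became 2.01 (adjusted p = 0.00933) without CD24Neg library 4 and was called (adjusted p = 0.00600) with neighbouring title numbers (2 with 1, 4 with 3 and so on) as a block, a pairing that no label states and that was chosen after the data were seen. All 5 tested B and plasma cell markers were lower in CD24Neg, where the list summed to 1325 to 1855, against 4595 to 9130 in CD24Mid. The part of these other cells in the results below was not tested. Each member was fitted again without CD24Neg libraries 2 and 8, an alternative chosen after the data were seen. That fit cannot decide the question, since CD24Neg libraries 4 and 6 also had more lymphocyte transcripts than any CD24Mid library.

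The members lie on 9 chromosomes of the mouse genome. In the GENCODE M21 annotation on GRCm38, which is a later build than the NCBIM37 of the files, Myc spans chr15:61985391-61990374 on the plus strand, Mxd1 chr6:86647042-86669161 on the minus strand and Max chr12:76937269-76962201 on the minus strand. Mxi1 spans chr19:53310518-53375810 on the plus strand and Mxd3 chr13:55325168-55329823 on the minus strand. Exons of 3 members overlap exons of a gene on the opposite strand: Mxd3 by 105 bases with Prelid1, Mxi1 by 194 bases with Gm10197, and Mxd4 by 514 bases with the antisense gene Gm42846. Whether the counting used strand is not given in the sources used here, so reads in these stretches cannot be assigned to one gene. Prelid1 had 5751 to 6810 in CD24Neg and 3190 to 4437 in CD24Mid, the opposite direction to Mxd3, and Gm10197 was at 2.0 or below in every library.

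RefSeq promoter windows on GRCm38.p6, each 300 bases from 250 before to 50 after the start, were matched to 9 of the 10 members, with 11 windows in all. Myc is named only. The windows were searched for the E-box CACGTG, which reads the same on both strands, and on both strands for 4 forms of the E2F site, TTTGGCGC, TTTCCCGC, TTTGCCGC and TTTCGCGC. E2F factors drive genes of the S phase. The E-box was in 3 of the 11 windows, those of Max, Mxd4 and Mnt, against 7.15% of all 32851 windows. It begins 3 bases before the start of Max and spans it, 219 bases before the start of Mxd4 and 123 bases before that of Mnt. An E2F form was in 1 window, that of Mycn, against 2.26% of all windows. That window holds 3 matches, beginning 183, 179 and 168 bases before the start, and the first 2 overlap on opposite strands. The stretches around these matches are shown because the E-box is the sequence through which network proteins reach DNA; capitals mark the E-box or E2F letters. A match is a description of letters and not a bound site.
Max, chr12:76962246-76962311, minus strand: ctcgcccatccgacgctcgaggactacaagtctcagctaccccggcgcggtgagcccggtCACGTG
Mxd4, chr5:34187864-34187960, minus strand: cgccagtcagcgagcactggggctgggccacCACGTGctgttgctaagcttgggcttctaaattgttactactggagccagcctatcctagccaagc
Mnt, chr11:74830741-74830866, plus strand: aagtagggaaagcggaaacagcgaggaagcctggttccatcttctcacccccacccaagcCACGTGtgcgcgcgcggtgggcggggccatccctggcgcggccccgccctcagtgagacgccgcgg
Mycn, chr12:12941937-12942079, minus strand: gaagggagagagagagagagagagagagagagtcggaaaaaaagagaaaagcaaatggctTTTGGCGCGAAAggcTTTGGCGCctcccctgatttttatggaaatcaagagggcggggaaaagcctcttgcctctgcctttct

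All 3 Myc family activators were lower in CD24Neg cells, and Max, 3 of the 4 Mxd genes and Mnt were higher. All 10 members passed the filter on low values and were tested. By limma on log2(value + 0.5) with Benjamini-Hochberg adjustment over 12906 genes and a threshold of 0.05, 5 members were higher, 4 were lower and 1, Mga, was not called. The fractions differ widely: 68.3% of all tested genes were called, 34.0% as higher and 34.3% as lower in CD24Neg, so 9 calls among 10 members stand beside a high background. CD24Neg and CD24Mid ranges were apart for 9 members, against 63.8% of all tested genes. In these bulk samples fewer cells expressing a gene and less of its RNA per cell cannot be told apart, and the p-values measure the spread between these 8 libraries.

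**Figure D1:**
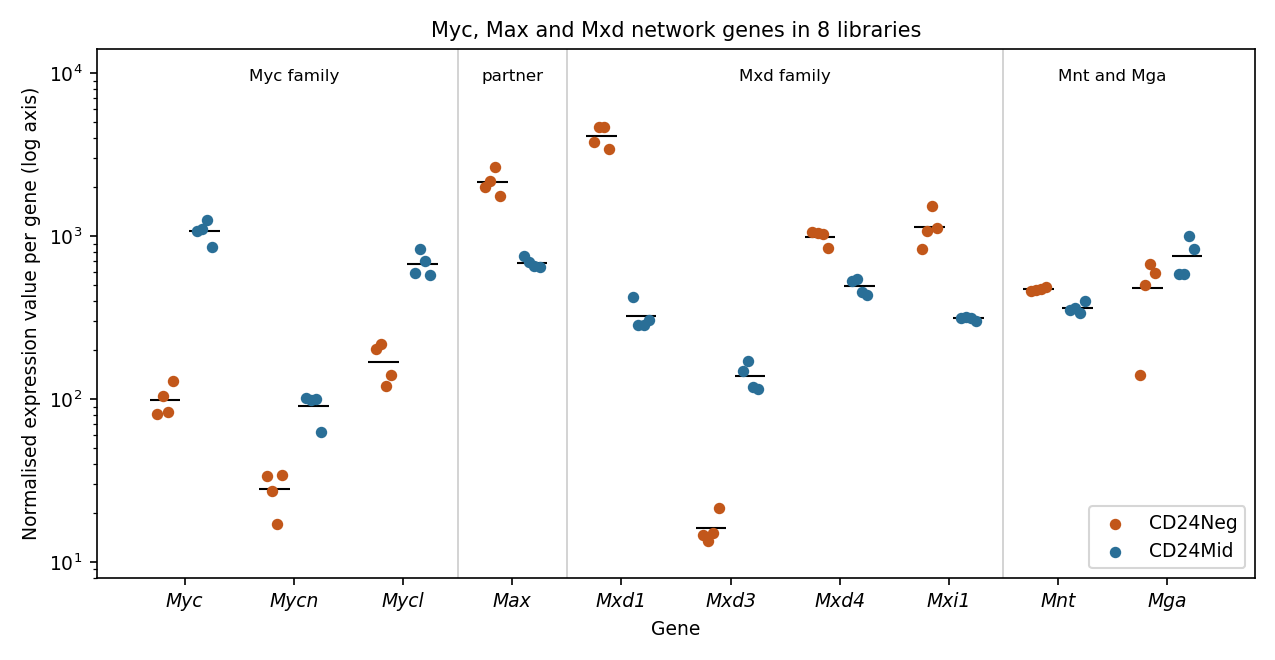
Normalised expression value (log axis) of each of the 10 members in every library, with CD24Neg left of CD24Mid; points are libraries and the bars are group means. Myc, Mycn, Mycl and Mxd3 sit lower in all 4 CD24Neg libraries, Max, Mxd1, Mxd4, Mxi1 and Mnt sit higher, and the ranges of Mga overlap.

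Myc, the founding member, had 80.5, 104, 82.9 and 129 in CD24Neg libraries 2, 4, 6 and 8, against 1072, 1099, 1263 and 862 in CD24Mid libraries 1, 3, 5 and 7. The highest CD24Neg library lay far under the lowest CD24Mid library. The means were 99.1 ± 22.5 in CD24Neg and 1074 ± 165 in CD24Mid (SD, n = 4 each), a 10.9-fold lower level in CD24Neg with a log2 difference of -3.44 (SE 0.18, 95% interval -3.84 to -3.05, adjusted p = 3.02e-07). The log2 difference of only 2.21% of tested genes was lower still. Without CD24Neg libraries 2 and 8, which had the most lymphocyte transcripts, it was -3.49. The lymphocyte markers still summed to 486 and 1361 in CD24Neg libraries 4 and 6, against 120 to 312 in CD24Mid. The part of such cells in the difference was not tested.

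Mycl, a Myc relative first found in lung cancer, had 202, 217, 119.7 and 140.0 in CD24Neg and 596, 834, 699.6 and 579.5 in CD24Mid. The groups were well apart, and within CD24Neg libraries 2 and 4 were above libraries 6 and 8. Its level was 169.7 ± 47.1 in CD24Neg and 677 ± 117 in CD24Mid, 4.06-fold lower in CD24Neg (log2 difference -2.02, SE 0.21, adjusted p = 1.31e-05). Mycn, known for its role in embryonic progenitors and neuroblastoma, had 33.7, 27.2, 17.0 and 34.4 in CD24Neg and 102, 98.3, 101 and 62.5 in CD24Mid. It was low in both fractions, and CD24Mid library 7 was clearly under the other 3. The means of 28.1 ± 8.05 in CD24Neg and 90.9 ± 18.9 in CD24Mid gave a log2 difference of -1.70 (SE 0.28, adjusted p = 0.000371). Bmyc, a short relative of Myc that lacks its DNA-binding part and was named after its values were seen, averaged 21.2 ± 12.2 in CD24Neg and 77.9 ± 13.8 in CD24Mid (log2 difference -2.04, adjusted p = 0.00158).

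Max, the obligate partner of both sides, rose in CD24Neg cells. It had 1993, 2177, 2641 and 1753 in CD24Neg and 753, 691, 659 and 644 in CD24Mid. The lowest CD24Neg library was above the highest CD24Mid library. The means of 2141 ± 376 in CD24Neg and 687 ± 48.1 in CD24Mid differed 3.09-fold (log2 difference 1.63, SE 0.13, adjusted p = 2.50e-06).

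Mxd1, the first described Max-binding repressor (Mad1), had the largest log2 difference of the members as fitted here, although under scaling to totals reduced by the 20 most abundant genes that of Myc was larger, at -3.87 against 3.25 for Mxd1. It had 3789, 4639, 4639.8 and 3427 in CD24Neg and 423, 284, 283 and 307 in CD24Mid. The 2 CD24Neg libraries with the most lymphocyte transcripts, 2 and 8, had the lower Mxd1 values of their group, and the groups did not overlap. The level of 4124 ± 614 in CD24Neg was 12.8-fold above the 324 ± 66.9 of CD24Mid (log2 difference 3.68, SE 0.16, 95% interval 3.33 to 4.02, adjusted p = 1.81e-07). The difference of 2.47% of tested genes was higher still, and without CD24Neg libraries 2 and 8 that of Mxd1 was 3.88. Lymphocyte markers still summed to 486 and 1361 in CD24Neg libraries 4 and 6, against 120 to 312 in CD24Mid. The part of such cells in the Mxd1 difference was not tested.

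Mxi1, a repressor of the same family, had 835, 1069, 1526 and 1124 in CD24Neg and 313, 320.3, 313 and 303 in CD24Mid. The CD24Mid libraries were nearly equal, with a coefficient of variation of 2.27%, while the CD24Neg libraries spread with one of 25.2%. The means of 1138 ± 287 in CD24Neg and 312 ± 7.11 in CD24Mid differed 3.56-fold (log2 difference 1.83, SE 0.16, adjusted p = 4.70e-06). Mxd4, the smallest change among the 3 Mxd genes that rose, had 1052, 1042, 1024 and 847 in CD24Neg and 533, 546, 453 and 437 in CD24Mid. Library 8 was the low one in CD24Neg and still lay above every CD24Mid library. The 2.02-fold difference between 991 ± 97.1 in CD24Neg and 492 ± 55.1 in CD24Mid gave a log2 value of 1.01 (SE 0.11, adjusted p = 2.70e-05).

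Mxd3 went the other way from its family. It is known in mice as the Mxd gene of dividing cells, where its RNA appears in S phase. It had 14.6, 13.5, 15.2 and 21.4 in CD24Neg, about 8.03 to 14.1 estimated reads, and 148, 170.3, 119 and 115 in CD24Mid. The groups were far apart, with the CD24Neg values near the filter of 10. The means of 16.2 ± 3.54 in CD24Neg and 138 ± 26.3 in CD24Mid gave an 8.32-fold lower level in CD24Neg (log2 difference -3.06, SE 0.23, adjusted p = 1.98e-06), which the added pseudocount of 0.5 understates for such low values. The 8 proliferation markers, beside which Mxd3 moved, summed to 2701 to 5517 in CD24Neg and 21225 to 30522 in CD24Mid.

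Mnt, a broadly expressed Max-binding repressor, had 457, 467, 474 and 488 in CD24Neg and 350.2, 364, 338 and 398 in CD24Mid. The groups did not overlap, and the CD24Neg libraries were the most uniform of any member there, with a coefficient of variation of 2.71%. The means of 471 ± 12.8 in CD24Neg and 362 ± 26.0 in CD24Mid differed 1.30-fold (log2 difference 0.38, SE 0.09, adjusted p = 0.00422). This direction depended on scaling: with libraries scaled to reduced totals, from which the 20 most abundant genes were left out, a scaling that moved the median log2 difference of all genes to -0.44, Mnt was at -0.046 (adjusted p = 0.695). Against a fold change of 1.5 it was not called either.

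Mga had 141, 500.3, 676 and 593 in CD24Neg and 586, 581, 1006 and 838 in CD24Mid. Libraries 2 and 4 of CD24Neg lay under every CD24Mid library, library 2 far under, and CD24Neg libraries 6 and 8 lay within the CD24Mid range. The means were 477 ± 236 in CD24Neg and 753 ± 207 in CD24Mid, with a log2 difference of -0.84 (SE 0.44, 95% interval -1.82 to 0.15, adjusted p = 0.116). Without CD24Neg library 2 the difference was -0.31 (adjusted p = 0.209), and with reduced totals it was -1.26 (adjusted p = 0.0237). With neighbouring title numbers as a block Mga was called lower (adjusted p = 0.0335), so its call rests on the design of the fit.

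**Figure D2:**
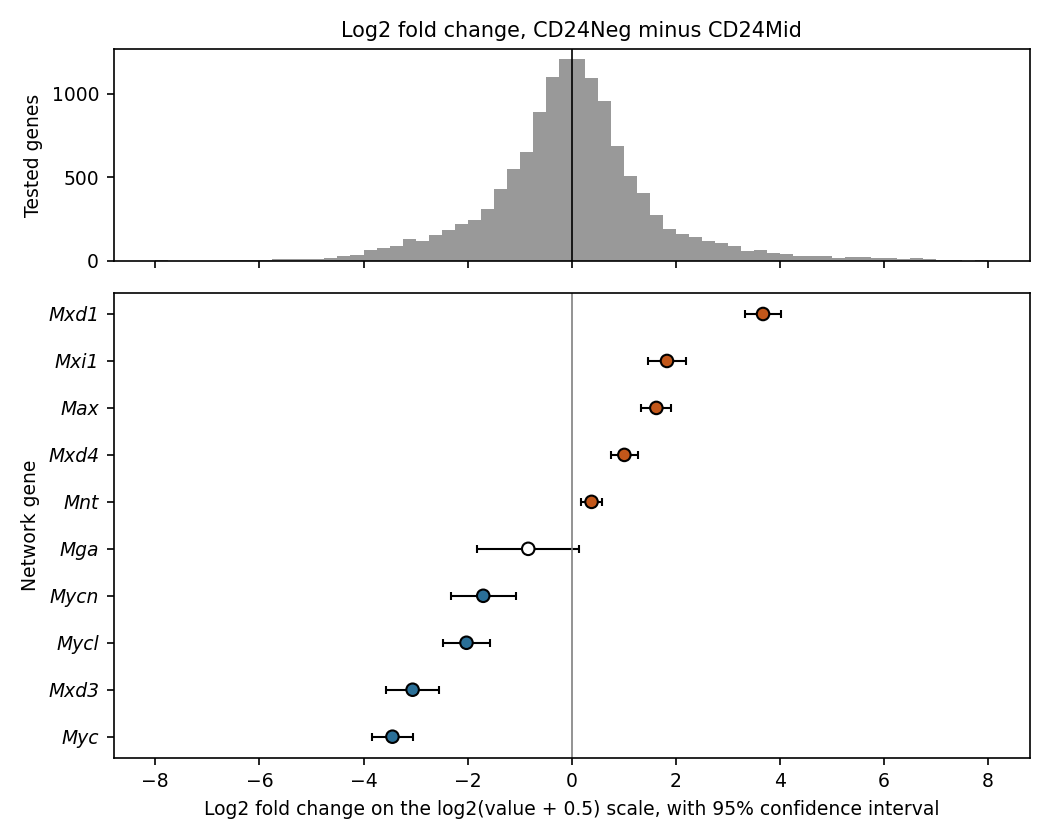
Log2 difference of CD24Neg minus CD24Mid for each member (lower panel: points with 95% intervals, orange where higher in CD24Neg, blue where lower, white where not called), under the distribution of the same quantity over the 12906 tested genes (upper panel). Mxd1 at 3.68 and Myc at -3.44 lie toward opposite ends of the distribution, and the interval of Mga spans 0.

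Levels of different members were compared per kilobase of exon, using the union of annotated exons of each gene, which need not be the transcript the cells use. In CD24Neg cells Max and Mxd1 led with 595 ± 104 and 583 ± 86.8 per kilobase, and their ranges overlapped. Mxi1 followed at 167 ± 42.1, Mxd4 at 117 ± 11.5 and Mnt at 102 ± 2.76, and the range of Mxd4 overlapped those of both. Mycl at 42.0 ± 11.7, Myc at 36.5 ± 8.29, Mga at 31.1 ± 15.4, Mycn at 8.52 ± 2.44 and Mxd3 at 6.83 ± 1.49 made up the rest of the order, again with overlapping neighbours. The order has clear steps in CD24Neg only between Mxd1 and Mxi1 and between Mnt and Mycl. With the longest coding transcript as the length, Mxd4 at 256 passed Mxi1 at 226, and Mxd3 at 12.2 passed Mycn at 10.5.

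In CD24Mid cells Myc led alone with 395 ± 60.6 per kilobase. Max at 191 ± 13.4 and Mycl at 168 ± 29.0 overlapped each other and lay above Mnt at 78.3 ± 5.61. Mxd3 at 58.2 ± 11.1, Mxd4 at 58.0 ± 6.50, Mga at 49.1 ± 13.5, Mxd1 at 45.8 ± 9.46 and Mxi1 at 45.8 ± 1.04 followed, each overlapping its neighbour. Among them only Mxi1, at 44.4 to 46.9, could be placed under Mxd3 (48.4 or more) and Mxd4 (51.5 or more). Mycn was lowest at 27.6 ± 5.75. This order also depended on the length used. With the longest coding transcript, Mnt at 79.0 lay under Mxd4 at 127 and Mxd3 at 104. Mga at 54.0 then lay under Mxd1 at 69.5 and Mxi1 at 62.0. The per-kilobase ratio of Max to Myc was 10.3 to 24.1 in CD24Neg and 0.394 to 0.564 in CD24Mid, so Max exceeded Myc in every CD24Neg library and Myc exceeded Max in every CD24Mid library.

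The make-up of the pool of Max partners changed accordingly. Of the summed per-kilobase levels of the 9 partners of Max, the Myc family held 8.08% ± 1.84 in CD24Neg and 63.6% ± 3.39 in CD24Mid. Mxd genes with Mnt held 89.1% ± 1.81 in CD24Neg and 31.1% ± 3.46 in CD24Mid, and the ranges were 86.8 to 91.0% against 26.3 to 33.9%. Mxd1 alone was 53.2% ± 3.09 of the pool in CD24Neg and 5.00% ± 1.19 in CD24Mid, whereas Myc alone was 3.38% ± 0.976 in CD24Neg and 42.5% ± 3.13 in CD24Mid. Mnt kept a like share, 9.40% ± 1.08 in CD24Neg and 8.56% ± 1.45 in CD24Mid, with overlapping ranges. With the longest coding transcript as the length, the Myc family held 6.37% in CD24Neg and 57.9% in CD24Mid. These are shares of RNA and say nothing of protein, and they have no test because the members were chosen for this question.

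**Figure D3:**
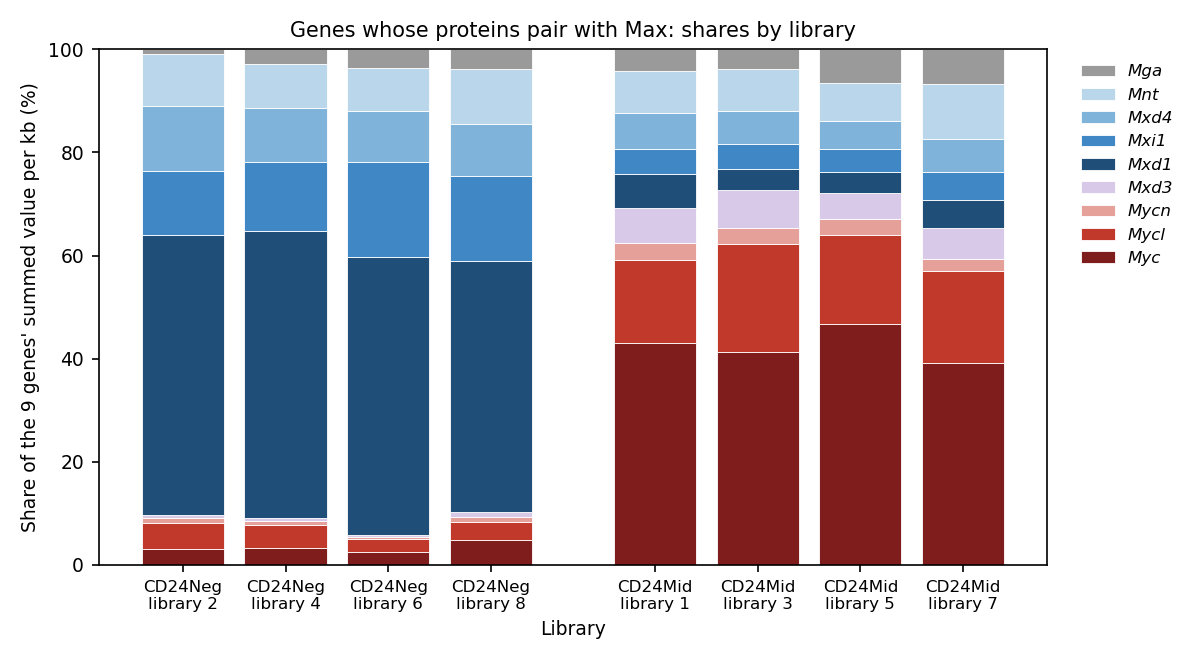
Share (percent) of the summed per-kilobase level of the 9 Max partners held by each partner, 1 bar per library, with CD24Neg libraries left of CD24Mid libraries. Mxd1 fills 48.7 to 55.8% of each CD24Neg bar and 4.02 to 6.52% of each CD24Mid bar.

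Within a library, the per-kilobase ratio of Mxd1 to Myc was 18.1, 17.1, 21.5 and 10.2 in CD24Neg and 0.152, 0.0992, 0.0861 and 0.137 in CD24Mid, a difference of 7.13 in mean log2 ratio. A ratio inside a library does not depend on a factor that scales the whole library, although quantile normalization can move it. Mxi1 to Myc ran from 3.47 to 7.33 in CD24Neg and from 0.0989 to 0.140 in CD24Mid, and Mnt to Myc from 2.22 to 3.36 in CD24Neg and from 0.157 to 0.271 in CD24Mid. Mxd3 to Myc was 0.149 to 0.210 in CD24Neg and 0.108 to 0.178 in CD24Mid, and these ranges overlapped. The ratio of Mxd1 to Mxd3, both of the same family, was 53.7 to 115 in CD24Neg and 0.558 to 0.955 in CD24Mid. Every CD24Neg library thus had more Mxd1 than Myc per kilobase, and every CD24Mid library had more Myc than Mxd1.

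Genes with the profile most like that of Myc over the 8 libraries were Paics, Smoc2 and Rrm2. They were chosen from 5115 genes of higher expression by the root mean square distance between centred log2 profiles, which was 0.178, 0.191 and 0.221, and the 8 libraries form 2 groups, so likeness mainly reflects the size of the group difference. Paics, an enzyme of purine synthesis, averaged 123 ± 35.8 in CD24Neg and 1213 ± 123 in CD24Mid. Smoc2, a marker of intestinal stem cells, averaged 217 ± 59.95 in CD24Neg and 2689 ± 186 in CD24Mid. Rrm2, a subunit of ribonucleotide reductase, averaged 117 ± 43.2 in CD24Neg and 1182 ± 85.1 in CD24Mid. In CD24Neg libraries 4 and 8 all of these, and Myc, had higher values than in libraries 2 and 6. The choice by distance over these same libraries favours such likeness, so it is no separate observation.

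The genes closest to Mxd1 were Cndp2, Abcg5 and Cyp4f14, at distances of 0.106, 0.119 and 0.136. Cndp2, a cytosolic dipeptidase, averaged 12766 ± 2060 in CD24Neg and 1036 ± 208 in CD24Mid. Abcg5, part of the sterol exporter of enterocytes, averaged 12247 ± 1031 in CD24Neg and 982 ± 276 in CD24Mid. Cyp4f14, a fatty acid hydroxylase, averaged 16637 ± 3238 in CD24Neg and 1437 ± 419 in CD24Mid. For each of them, as for Mxd1, CD24Mid library 1 was the highest of its group. They were chosen by distance over these same libraries, which favours such likeness. Some but not all of the enterocyte markers were also highest in that library among the CD24Mid libraries.

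The Mlx arm is a parallel network in which Mlx takes the place of Max and pairs with the glucose-sensing factors Mlxip (MondoA) and Mlxipl (ChREBP). All 3 genes were called, beside 68.3% called among all tested genes. Mlx averaged 1909 ± 205 in CD24Neg and 845 ± 92.8 in CD24Mid (log2 difference 1.17, adjusted p = 8.52e-06). Mlxipl averaged 8205 ± 1065 in CD24Neg and 4117 ± 330.3 in CD24Mid (0.99, adjusted p = 5.02e-05). Mlxip went down, with 1095 ± 49.4 in CD24Neg and 2616 ± 174 in CD24Mid (-1.26, adjusted p = 1.23e-06).

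Of 34 genes known to be induced by Myc, 31 fell in CD24Neg cells and 3 rose, beside 34.3% lower and 34.0% higher among all tested genes. The median log2 difference was -1.58, against -0.02 over all tested genes. Srm, which makes spermidine, averaged 48.7 ± 6.86 in CD24Neg and 339.7 ± 13.3 in CD24Mid (log2 difference -2.80, adjusted p = 3.18e-07). Nolc1, a nucleolar chaperone, averaged 336 ± 51.9 in CD24Neg and 1621 ± 121 in CD24Mid (-2.28, adjusted p = 3.18e-07). Ldha, lactate dehydrogenase A, was higher and averaged 24596 ± 1556 in CD24Neg and 13364 ± 2234 in CD24Mid (0.89, adjusted p = 0.000241), a direction that turned to -0.056 under quantile normalization. All 8 proliferation markers fell beside this list, and their part in it was not tested.

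Of 8 genes known to be repressed by Myc, 5 rose, 1 fell and 2 were not called, with a median log2 difference of 0.93. Among all tested genes 34.0% were higher and 34.3% lower, 68.3% called in all. The ranges of the fractions were apart for 4 of the 8 genes, against 63.8% of all tested genes. Cdkn1a, the cyclin-dependent kinase inhibitor p21, averaged 2680.4 ± 198 in CD24Neg and 571 ± 92.1 in CD24Mid (2.24, adjusted p = 4.00e-07). Cdkn2b, the inhibitor p15, averaged 1753 ± 204 in CD24Neg and 340.5 ± 130.5 in CD24Mid (2.43, adjusted p = 7.71e-06). Cdkn1b, the inhibitor p27, was lower, with 769 ± 111 in CD24Neg and 1022 ± 101 in CD24Mid (-0.42, adjusted p = 0.0145). Without CD24Neg libraries 2 and 8 the call of Cdkn1b was lost (-0.24, adjusted p = 0.129).

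**Figure D4:**
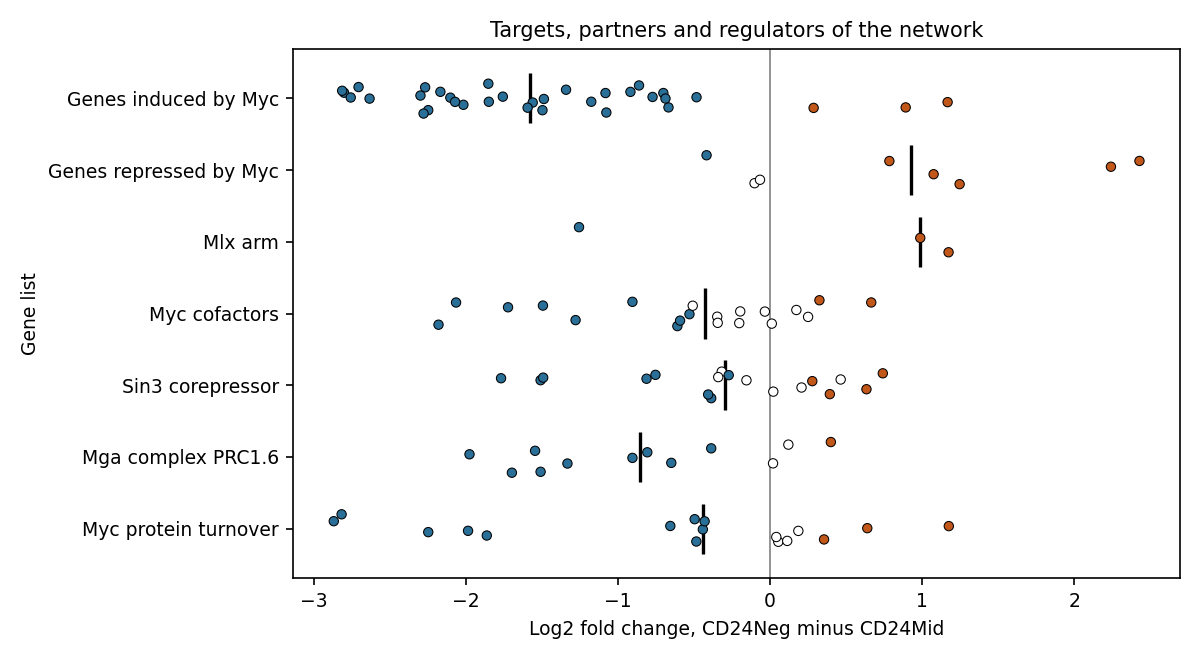
Log2 difference of CD24Neg minus CD24Mid for every gene of the 7 pathway lists (points, orange where higher in CD24Neg, blue where lower, white where not called), with the median of each list as a bar; the median of all tested genes was -0.02. Genes induced by Myc lie mostly under 0, with a median of -1.58, and genes repressed by Myc mostly above it, with a median of 0.93.

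Of 20 genes for proteins that work with Myc, 2 were higher, 9 lower and 9 not called, beside 34.0% higher and 34.3% lower among all tested genes, and the median log2 difference was -0.43. Ruvbl1, a helicase of the chromatin remodellers that bind Myc, averaged 121 ± 16.3 in CD24Neg and 547 ± 34.3 in CD24Mid (-2.18, adjusted p = 4.32e-07). Hcfc1, a chromatin-bound Myc partner, averaged 1123 ± 45.1 in CD24Neg and 3169.6 ± 310.1 in CD24Mid (-1.49, adjusted p = 7.95e-07). Zbtb17 (Miz1), through which Myc represses Cdkn1a and Cdkn2b, was higher, with 669 ± 90.0 in CD24Neg and 419.8 ± 39.3 in CD24Mid (0.67, adjusted p = 0.000646), a call lost with reduced totals (adjusted p = 0.134). Supt5, an elongation factor, averaged 2290.4 ± 255 in CD24Neg and 1822 ± 122 in CD24Mid (0.33, adjusted p = 0.0183). The call of Supt5 was lost without CD24Mid library 5 (adjusted p = 0.0590) or 7 (adjusted p = 0.0530), and its direction turned to -0.11 under quantile normalization and -0.10 under scaling to reduced totals.

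Of 18 genes of the Sin3 complex, the corepressor that Mxd proteins recruit, and its associates, 4 were higher, 8 lower and 6 not called, with a median log2 difference of -0.29. The number called is near the background of 68.3%. The scaffold Sin3b averaged 1019.7 ± 77.8 in CD24Neg and 659 ± 78.6 in CD24Mid (0.63, adjusted p = 0.00048), while its paralogue Sin3a, named after its values were seen, was lower (-0.81, adjusted p = 4.35e-05). Ncor1, a scaffold of a related corepressor, averaged 6248 ± 1557 in CD24Neg and 3688 ± 635 in CD24Mid (0.74, adjusted p = 0.00570), a call lost under quantile normalization (adjusted p = 0.263). Rbbp7, a histone chaperone, averaged 935 ± 69.3 in CD24Neg and 3189 ± 311 in CD24Mid (-1.77, adjusted p = 4.30e-07). Hdac2, the deacetylase that also sits in PRC1.6, averaged 454 ± 34.9 in CD24Neg and 1293 ± 115 in CD24Mid (-1.51, adjusted p = 9.34e-07). Under scaling to reduced totals none of these 18 genes was called higher; the count was 2 without CD24Neg library 8, CD24Mid library 5 or CD24Mid library 7, and 2 without CD24Neg libraries 2 and 8.

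Of the 12 partners of Mga in PRC1.6, 3 of which also stand in the cofactor or Sin3 list, 9 were lower, 1 was higher and 2 were not called, beside 34.3% lower and 34.0% higher among all tested genes, with a median log2 difference of -0.85. Tfdp1, the partner of E2F6 there, averaged 641 ± 42.8 in CD24Neg and 2081 ± 194 in CD24Mid (-1.70, adjusted p = 4.73e-07). Rybp, which stimulates the ubiquitin ligase of the complex, averaged 683 ± 117 in CD24Neg and 517 ± 86.6 in CD24Mid (0.40, adjusted p = 0.0387). The ranges of Rybp overlapped, and its call was lost without CD24Neg library 4 or 6 or CD24Mid library 1, 3 or 7 (adjusted p from 0.0506 to 0.105). Its direction turned to -0.027 under scaling to reduced totals.

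Of 17 genes that set the stability of the Myc protein, 3 were higher, 10 lower and 4 not called, beside 68.3% called among all tested genes, with a median log2 difference of -0.44. Aurka, the kinase that shields Mycn from degradation, averaged 114 ± 29.1 in CD24Neg and 814 ± 40.9 in CD24Mid (-2.87, adjusted p = 5.52e-07). Set, an inhibitor of the phosphatase that acts on Myc, averaged 1462 ± 73.6 in CD24Neg and 5327 ± 484 in CD24Mid (-1.86, adjusted p = 3.31e-07). Usp37, a deubiquitinase that stabilises Myc, was higher, with 1419 ± 344 in CD24Neg and 616 ± 60.6 in CD24Mid (1.18, adjusted p = 0.000112). Gsk3a, a kinase of the phosphorylation that marks Myc for destruction, averaged 1912 ± 191 in CD24Neg and 1227 ± 129 in CD24Mid (0.64, adjusted p = 0.000546), a call lost under quantile normalization (adjusted p = 0.0550) and with reduced totals (adjusted p = 0.0832). Fbxw7, the ubiquitin ligase subunit that reads this mark and was named after its values were seen, was not called (log2 difference 0.06, adjusted p = 0.759).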

How the data were processed

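Per the labels' protocols, total RNA of sorted cells was prepared with the TruSeq RNA kit. The deposited values are signal values per Ensembl gene, normalised by the authors; per the file headers they are gene-level estimates. Bowtie 0.12.8 and the build NCBIM37 are named in the submitters' processing notes. For the estimation tool's version, annotation release and scaling method, nothing is given in the sources used here. Only 26.9 to 28.3% of values lay within 0.1 of a whole number of steps, so reads were not recovered and no count model was used; for values other than counts the design named limma.

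After centring on the median ratio, genes with at least 10 in at least 4 libraries were fitted as log2(value + 0.5) in limma 3.58.1 (R 4.3.3) with a trend and robust variances, without covariates, leaving 6 residual degrees of freedom. Adjusted p-values are Benjamini-Hochberg values over 12906 genes, with a threshold of 0.05. Fold changes on this scale understate changes of low genes. The fit was tested on simulated data. Symbols from GENCODE M21 matched 21223 of 23318 identifiers.

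The members and lists were chosen with earlier results of these data known. Named were all members and Mlx arm genes, the 2 called genes with the lowest adjusted p in each direction from each list of 8 or more genes, the 3 genes most like Myc and the 3 most like Mxd1 among genes in the top 40% of mean value, and Cd24a and Ptprc. Some list genes are not reported here by name and remain in the counts. Alternatives were 3 other scalings, 2 other filters, no trend, a 1.5-fold threshold in the test, a pseudocount of 0.1 or 1, leaving out each library in turn, and 2 added later: no CD24Neg libraries 2 and 8, and a block on neighbouring title numbers.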

Additional observations from a re-analysis of the deposited data

Results flagged for a closer look

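Among 72 groups of 4 libraries, those of the members, the named pathway genes, Cd24a and Ptprc, 5 had a library whose gap to its nearest neighbour, as a share of the group's range, was past Dixon's 95% critical value, and chance flags about 1 in 20 groups. Mycn was low in CD24Mid library 7, at 62.5 against 98.3 to 102 in the other 3. Mxd1 was high in CD24Mid library 1, at 423 against 283 to 307. Mxd4 was low in CD24Neg library 8, at 847 against 1024 to 1052. Mlx was high in CD24Mid library 1, at 984 against 794 to 807. Aurka was high in CD24Mid library 3, at 875 against 787 to 797. Each of these genes kept its direction and its call when that library was left out.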

How the results depend on the processing

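Of the 10 members, 8 kept their direction and call in all 19 alternatives: log2 differences ran from -3.87 to -3.34 for Myc, -2.12 to -1.44 for Mycn, -2.45 to -1.87 for Mycl, 1.20 to 1.83 for Max, 3.25 to 3.88 for Mxd1, -3.48 to -2.84 for Mxd3, 0.58 to 1.10 for Mxd4 and 1.40 to 2.05 for Mxi1. Mnt turned to -0.046 under scaling to reduced totals (the 20 most abundant genes left out), as did Supt5 to -0.10 and Rybp to -0.027; under quantile normalization Supt5 turned to -0.11 and Ldha to -0.056. The cause was not tested. That scaling to totals called 2842 genes higher, and 30.4% of its calls were higher, against 49.8% as reported; it gave 0 higher and 17 lower cofactors, 0 higher Sin3 genes, 0 higher PRC1.6 genes, 1 higher turnover gene, and 3 higher and 3 lower Myc-repressed genes. Against a fold change of 1.5, 2360 genes were higher and 2430 lower; 0 cofactors, 0 Sin3 genes and 0 PRC1.6 genes were higher, 3 Sin3 genes were lower, 1 turnover gene was higher and 5 lower, 1 Myc-induced gene was higher, and 3 Myc-repressed genes were higher and 0 lower. Quantile normalization gave 1 higher cofactor, 0 higher PRC1.6 genes, 1 higher turnover gene, 1 higher Myc-induced gene and 2 lower Myc-repressed genes. Without a filter, 0 PRC1.6 genes and 3 Myc-repressed genes were higher; without the trend, 0 PRC1.6 genes were. Leaving out 1 library at a time gave 1 to 3 higher cofactors, 2 to 4 higher Sin3 genes and 0 to 1 higher PRC1.6 genes. Without CD24Neg libraries 2 and 8, chosen after seeing the data, 5 members were higher and 4 lower, 1 cofactor and 2 Sin3 genes were higher, and 0 Myc-repressed genes were lower. The fractions share no replicate number. With neighbouring title numbers as a replicate block, also chosen after seeing the data, 5 members were higher and 5 lower, Mga being called (adjusted p = 0.0335). Deviations from the group means correlated at 0.282 to 0.332 over 12906 genes within these pairs, and at most at 0.0331 for any other pair of a CD24Neg and a CD24Mid library, a hint from the data that no label states. Apart from Mga and Ptprc (adjusted p = 0.00600), the block changed no call of a named gene. Depth limits Mxd3 and Mycn most in CD24Neg, where 1 step was worth 1.07 to 1.78, against 0.582 to 0.7 in CD24Mid.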
